A study of Drosophila melanogaster with 4 samples.

Results

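X-linked 5' UTR intervals are the leader sequences of X chromosome transcripts listed in an iCLIP table for Sister of Sex-lethal (Ssx). They were chosen by position alone, as every interval of the authors' 5' UTR table whose range lies on the X. This gave 561 of 2159 listed intervals and 303 of 1345 gene names. Overlapping intervals on the same strand with an equal mean value were taken to hold the same reads and merged into 1 observation, which left 439 X-linked observations of 1742 in all. They lie between positions 428038 and 23096734 of the X in dm6, 225 on the minus and 214 on the plus strand. iCLIP maps RNA that was crosslinked to a protein in living cells and recovered with an antibody. The groups were RNA recovered with a polyclonal rabbit Ssx antibody (2 libraries) and with control rabbit IgG (2 libraries). Both came from SL2, Schneider's line 2, a male Drosophila melanogaster cell line, and the labels name no treatment or genotype difference between them. Separate cultures are not mentioned in the labels, and p-values here therefore rest on the spread between libraries alone, which may be technical.

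Ssx is a paralog of Sex-lethal (Sxl), an RNA-binding protein that prefers runs of uridine. In female flies Sxl binds the leader and the 3' UTR of the msl-2 message and represses its translation, which prevents dosage compensation of the X, while in male cells functional Sxl is absent. A 5' UTR is the stretch between the cap and the start codon, where the small ribosomal subunit scans, and a protein bound there can change how often a message is translated. The comparison asks which X-linked leaders gave more reads with the Ssx antibody than with IgG.

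The authors' deposited table gives for each interval the mean of normalized reads over the libraries, a log2 fold change with its standard error (SE) and the p of DESeq2, a count-based test. It does not write which group is on top of the fold. Positive was taken to mean more reads in the Ssx IP, a likely reading since the table was deposited as a list of bound transcripts. The mean of normalized reads rises in steps, from which the whole reads in 4 libraries could be solved for every listed interval. These libraries have no names and are called a, b, c and d in order of their reads over listed leader intervals that do not overlap. No sample or group label was given to any of them, since labels were not taken from values. Where all reads of an X-linked observation lay in 1 library, the fold in the authors' deposited table was positive in 168 of 168 cases for library a or b and negative in 11 of 11 for library c or d. Over X-linked intervals that do not overlap, libraries a to d held 1367, 1346, 165 and 109 reads. Libraries c and d together held 9.17% of the X-linked reads and 13.1% of the reads on the other chromosomes, a description without a test.

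Most X-linked leaders were sparsely covered. The median was 4 reads per observation over the 4 libraries, against 3 for all 5' UTR observations, 126 of the 439 held the minimum of 2 reads, and 94 held 10 or more. Interval lengths ran from 5 to 3624 bases with a median of 255. All 438 observations of the 302 genes that could be matched to RefSeq lay inside their gene, and 209 of them started within 20 bases of the gene's annotated start. Of 11 marker genes listed for SL2 cells, 6 were listed in any of the 4 region tables and 1, ush, in the 5' UTR table. roX1, Hml, NimC1, He and Sr-CI were listed in none, and roX2, a male dosage compensation RNA, only in the intron table.

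Adjusted p-values were deposited for 34 X-linked genes, whose intervals had a mean of at least 3.55 normalized reads, while the highest X-linked mean without one was 3.54. An interval can reach such a mean through 1 group alone, so the fold changes of these 34 genes are described and are not used as evidence about the X-linked leaders as a whole. Of the 34 genes, 5 were enriched in the Ssx IP at an adjusted p under 0.05 and 0 were depleted by DESeq2 in the authors' deposited table, and 12 of 303 X-linked genes had an unadjusted p under 0.05, against 20 of 1042 on the other chromosomes and 32 of 1345 in all. Of all tested 5' UTR genes 11.0% were enriched, against 14.7% on the X (exact 95% interval 4.95 to 31.1) and 8.33% elsewhere (2.32 to 20). These intervals overlap widely, and they cover counting error only. The enriched genes were the ribosomal protein genes RpS6, RpS19a, RpL17 and RpS5a, and CG10970. When the DESeq2 p-values were adjusted over every listed 5' UTR interval, 0 of the 5 passed, with RpS6 at an adjusted p of 0.067, and over all 4 region tables RpS6 alone passed, at 0.0242.

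**Figure D1:**
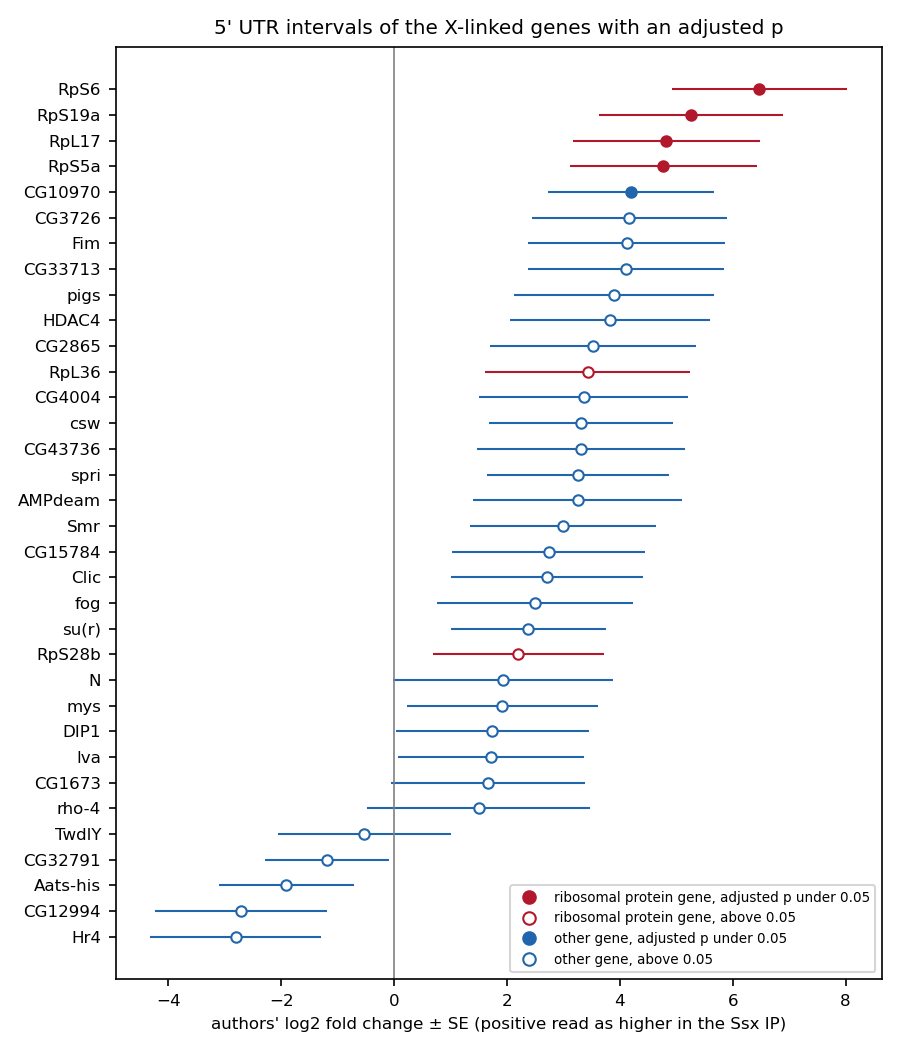
The authors' log2 fold change (points) with its SE (bars) for the interval of smallest p of each of the 34 X-linked genes with an adjusted p, where filled points have an adjusted p under 0.05 and red marks ribosomal protein genes. The scale runs from 6.47 for RpS6 to -2.81 for Hr4, with 29 genes above 0 and 5 below, and the enriched genes are the uppermost 5.

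Ribosomal protein messages are short, abundant and translated in step with growth. RpS6 encodes a small subunit protein known as a target of S6 kinase. Its interval of 83 bases (X, 7901249 to 7901331, minus strand, dm6) begins at the annotated start of the gene and held 113, 41, 0 and 0 reads in libraries a to d. All of its 154 reads thus lay in libraries a and b. In the authors' deposited table it had the largest fold change of any 5' UTR interval, 6.47 ± 1.55 on the log2 scale (SE; adjusted p = 0.00568, DESeq2), at a mean of 33.1 normalized reads.

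RpS19a, a small subunit gene, had 48, 15, 0 and 0 reads in an interval of 339 bases (X, 16637894 to 16638232, plus strand, dm6). Libraries c and d again held none. Its log2 fold change was 5.27 ± 1.63 in the authors' deposited table (adjusted p = 0.0318, DESeq2). RpL17, a large subunit gene (X, 6743950 to 6744238, minus strand, dm6), had 25, 24, 0 and 0 reads, nearly equal in libraries a and b. In the authors' deposited table its log2 fold change was 4.82 ± 1.65 (adjusted p = 0.049, DESeq2). Of its 289 bases, 159 are also listed as an intron of RpL17, and they held 40 of the 49 reads. The leader of 130 bases outside that intron had 9 reads and 2.14 ± 1.96, without an adjusted p. Other listed introns of RpL17 share 196 and 246 of the 289 bases and reach into this leader. RpS5a, a small subunit gene (X, 17147688 to 17148264, minus strand, dm6), had 20, 29, 0 and 0 reads, with more in library b than in a. It had a log2 fold of 4.77 ± 1.66, as given by the authors' deposited table (adjusted p = 0.049, DESeq2). Of its 577 bases, 516 are also listed as an intron of RpS5a, and they held 24 of the 49 reads. The leader of 61 bases outside that intron had 25 reads and 3.69 ± 1.79 (adjusted p = 0.123, DESeq2).

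CG10970, the only enriched X-linked gene that does not encode a ribosomal protein, had 39, 28, 0 and 1 reads over 1343 bases (X, 9070066 to 9071408, minus strand, dm6) and 4.20 ± 1.47 on the log2 scale in the authors' deposited table (adjusted p = 0.049, DESeq2). Of these bases, 725 also lie in a 3' UTR interval of CG44325 on the same strand, which was enriched by the authors' deposited table at a log2 fold of 4.81 ± 0.87 and a mean of 71.7 normalized reads. From which gene the reads of CG10970 came is therefore uncertain.

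Of 14 X-linked ribosomal protein genes with a listed leader, 6 had an adjusted p and 4 were enriched, beside 11.0% of all tested 5' UTR genes. Of 50 such genes on the other chromosomes, 7 had an adjusted p and 0 were enriched. The difference between these counts was not tested, and the list was chosen with results of these data known. The tested X-linked members that did not pass were RpL36, with 11, 8, 0 and 0 reads and 3.43 ± 1.82 in the authors' deposited table (log2 scale; adjusted p = 0.129, DESeq2), and RpS28b, with 16, 18, 3 and 0 reads and 2.20 ± 1.51 (adjusted p = 0.218). RpS28b was thus the only tested ribosomal protein gene of the X with more than 1 read in library c. Over all 30 X-linked observations of the list, 29 had a positive fold, with a median of 2.17 on the log2 scale and of 9.5 reads. The 69 observations of the list on the other chromosomes had 61 positive folds and medians of 1.01 on the log2 scale and 5 reads, so they were also covered less. RpS14a had 10, 6, 0 and 0 reads in its leader of 292 bases, and 3.18 ± 1.85 in the authors' deposited table without an adjusted p. RpL22, RpS14b, RpS10b, RpS15Aa, RpL35, RpL7A and RpL37a had at most 12 reads each. The one negative value of the list was a second interval of RpS14b, whose 3 reads all lay in library d, at -1.93 ± 1.97 in the authors' deposited table.

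Where a gene was listed with leaders of 2 lengths and a shared 5' end, the reads of the short interval show how much signal lay next to that end. The shared end was not always the annotated start of the gene, and lay 232 bases from it in exd and 1243 in gce. Such pairs were found for 28 X-linked genes, and in 21 of them the short interval held a larger share of the reads than of the length, against 43 of 56 pairs on the other chromosomes. In RpS6 the 83 bases at the 5' end held 154 of the 164 reads over 411 bases, which is 93.9% of the reads on 20.2% of the length. In RpS19a the 34 bases at the 5' end held 58 of 63 reads, 92.1% of the reads on 10% of the length. The short intervals held 186 and 171 reads per 100 bases, against 3.05 and 1.64 reads per 100 bases over the remainder of the long interval. In RpS6 that remainder is also listed as an intron (235 bases) and as coding sequence (6 and 87 bases) of the same gene. In RpS19a it is also listed as an intron (305 bases). The contrast is thus between a short leader and bases that are also listed as intron or coding sequence.

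A short interval with most of the reads was also seen at lower depth. In RpS14a 33 bases held 14 of 16 reads, and in CG2865 59 bases held 16 of 19 reads over 722 bases. RpS5a had 25 of 49 reads in 61 of 577 bases, at 41.0 reads per 100 bases in the short interval against 4.65 over the remainder. That remainder is wholly listed as an intron of RpS5a as well. RpL17 ran the other way, with 9 of 49 reads in the 130 bases at the 5' end, 18.4% of the reads on 45.0% of the length. Its other 40 reads lay in bases also listed as an intron of RpL17, and part of the 130 bases is listed as intron too. spri, which encodes a Rab5 exchange factor of endocytosis, had 3 of 33 reads in 175 of 513 bases. Listed introns of spri share 174 and 252 of these 513 bases. exd, a homeodomain cofactor of Hox proteins, had 2 of 17 reads in 155 of 225 bases. The X-linked leaders thus did not share 1 placement of reads. Among the 15 X-linked pairs with 10 or more reads, the short interval held between 9.09% and 93.9% of them, with a median of 51% on a median of 24.5% of the length. The 15 pairs on the other chromosomes had medians of 50% and 22.3%.

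**Figure D2:**
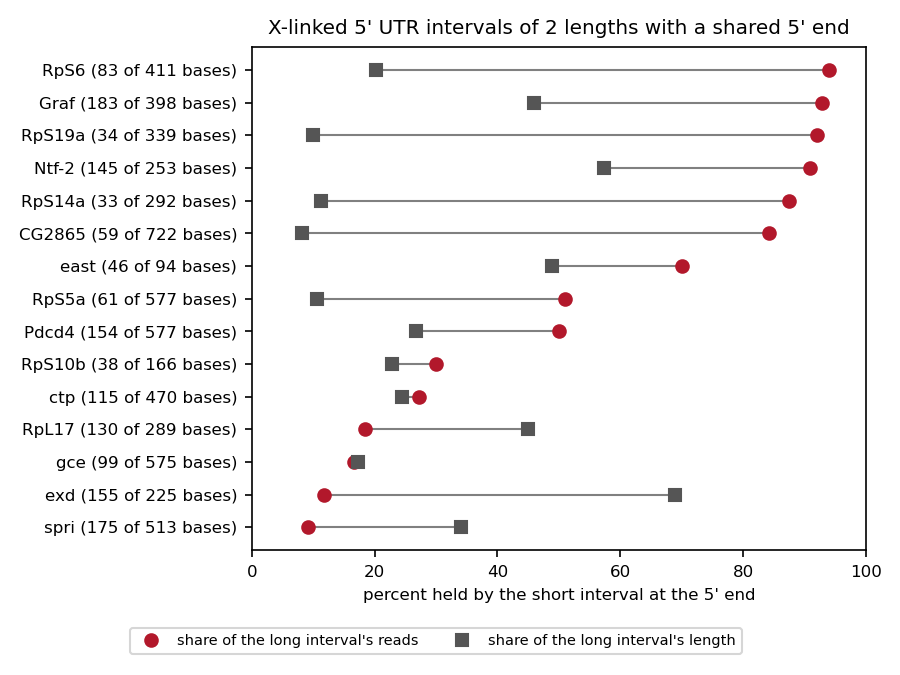
Share of the reads (red circles) and of the length (grey squares) of the long leader that falls in the short leader with the same 5' end, in percent, for the 15 X-linked genes with 10 or more reads. Circles lie right of squares in 11 genes, farthest for RpS19a, and left of them for RpL17, gce, exd and spri.

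The next group of tested X-linked leaders had a positive fold but an adjusted p above 0.05. By smallest p it began with CG3726, at 15, 17, 0 and 0 reads and 4.17 ± 1.73 in the authors' deposited table (log2 scale; adjusted p = 0.108, DESeq2). Fim, the actin bundler fimbrin, had 20, 9, 0 and 0 reads and 4.12 ± 1.74 in the authors' deposited table (adjusted p = 0.111, DESeq2). CG33713, now named anox, had 16, 14, 0 and 0 reads and 4.10 ± 1.74 in the authors' deposited table (adjusted p = 0.111, DESeq2). Of its 345 bases, 273 are also listed as coding sequence and 59 as 3' UTR of CG33714, so from which gene its reads came is uncertain. In each of these leaders the reads were divided between libraries a and b, as they were in the enriched genes. The cytoskeletal gene pigs (3.89 ± 1.77) and the histone deacetylase gene HDAC4 (3.82 ± 1.77) followed in the authors' deposited table, with 25 reads each and none in libraries c and d. csw, the SHP2-type tyrosine phosphatase, and spri had 33 reads each, 1 of them in library c, and log2 fold changes of 3.32 ± 1.63 and 3.26 ± 1.62 in the authors' deposited table.

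The fold changes below these were smaller relative to their SE. CG2865, CG4004, CG43736 and AMPdeam, the gene of AMP deaminase, held 16 to 19 reads, none of them in libraries c and d. The authors' deposited table put their log2 folds at 3.26 to 3.53. su(r), which encodes the pyrimidine-degrading enzyme dihydropyrimidine dehydrogenase, was better covered, with 31, 27, 5 and 0 reads on 201 bases, and had 2.38 ± 1.37 in the authors' deposited table (adjusted p = 0.136, DESeq2). CG15784, the chloride channel family gene Clic and fog, whose secreted product drives gastrulation movements, had 20 to 23 reads with 1 in library c each, and 2.74 ± 1.71, 2.70 ± 1.70 and 2.49 ± 1.73 in the authors' deposited table. mys, the beta-PS integrin, DIP1, a double-stranded RNA-binding protein gene, the golgin gene lva and CG1673, now named Bcat, had 1.67 to 1.92 on the log2 scale by the authors' deposited table.

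In a few tested leaders nearly all reads came from 1 library. N, the Notch receptor gene (X, 3134870 to 3135667, plus strand, dm6), had 0, 27, 0 and 0 reads, and rho-4, a rhomboid protease gene, had 16, 0, 1 and 0. The CG2865 leader of 59 bases had 15, 1, 0 and 0. The authors' deposited table gave N and rho-4 log2 values of 1.93 ± 1.95 and 1.5 ± 1.98, with SEs as large as the values. By contrast mys, with 15, 3, 2 and 0 reads, had nearly the same value as N from fewer reads, some of them in library c. N had a finite value with all its reads in 1 library, so these values are not plain ratios of reads. Of the 94 X-linked observations with 10 or more reads, those of N and Rab21 had all reads in 1 library.

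**Figure D3:**
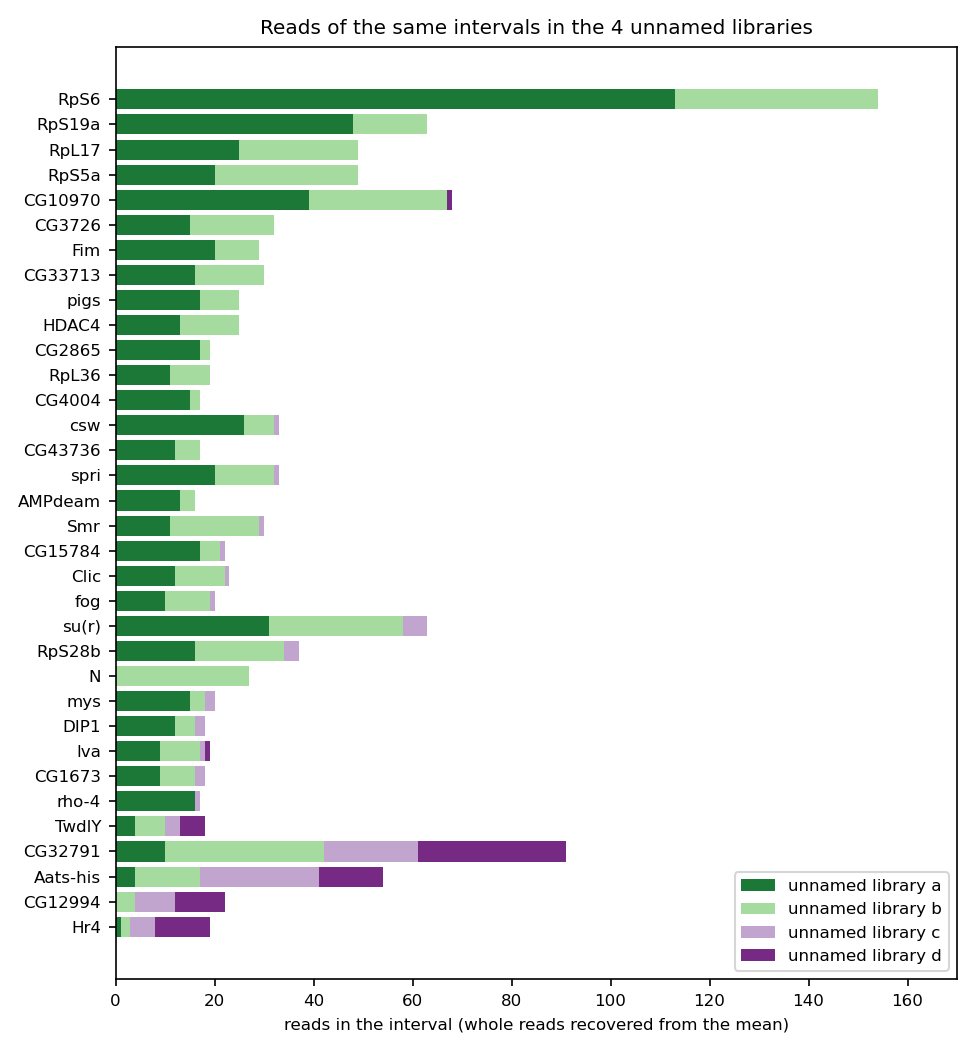
Reads in the 4 unnamed libraries (stacked bars, in reads) for the same 34 intervals in the same order of fold change. The bar of RpS6 ends at 154 reads, all in libraries a and b, N has all 27 in library b, and the lowest 5 genes hold reads in libraries c and d.

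The corepressor gene Smr, whose product binds the ecdysone receptor, had separate leader intervals that gave different values. Whether these belong to 1 start site or several was not tested. The interval of 193 bases (X, 12741449 to 12741641, minus strand, dm6) had 11, 18, 1 and 0 reads and 3.0 ± 1.65 in the authors' deposited table, and a neighbour of 204 bases had 15, 8, 1 and 0 reads and 2.81 ± 1.69. The leader downstream of these, of 961 bases (X, 12731440 to 12732400, minus strand, dm6), had 14, 41, 9 and 6 reads and a log2 fold of 0.78 ± 1.20, as given by the authors' deposited table. The upstream intervals had 1 read each in libraries c and d together, and the downstream interval had 15. None passed the adjusted p, and the difference between them was not tested. The upstream intervals lie wholly, and the downstream one in 582 of its bases, in listed introns of Smr.

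Among the 34 genes, 5 had a negative fold, against 3 of 48 tested on the other chromosomes, and none of the 5 passed. Hr4, an orphan nuclear receptor of the ecdysone cascade (X, 1942427 to 1942864, plus strand, dm6), had 1, 2, 5 and 11 reads. Its largest numbers lay in libraries c and d, which held the fewest leader reads. In the authors' deposited table its log2 fold change was -2.81 ± 1.51 (adjusted p = 0.129, DESeq2). CG12994 had 0, 4, 8 and 10 reads and -2.71 ± 1.52 in the authors' deposited table (adjusted p = 0.132, DESeq2).

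Aats-his, the histidyl-tRNA synthetase gene now named HisRS, had 4, 13, 24 and 13 reads and -1.91 ± 1.19 in the authors' deposited table (adjusted p = 0.174, DESeq2). CG32791, now named DIP-alpha, a cell-surface protein of the immunoglobulin superfamily, held more reads in 1 interval than any X-linked gene but RpS6, with 10, 32, 19 and 30 reads (X, 3530421 to 3530665, minus strand, dm6). All 4 libraries held at least 10 of its reads. Its log2 fold change was -1.19 ± 1.09 in the authors' deposited table (adjusted p = 0.352, DESeq2), with the smallest SE in the 5' UTR table. The cuticle protein gene TwdlY had 4, 6, 3 and 5 reads and -0.53 ± 1.53 in the authors' deposited table.

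Genes of sex determination and dosage compensation had little signal in X-linked leaders. Of this list, snf and Sxl were listed on the X, and neither had an adjusted p. snf, a spliceosomal protein that takes part in Sxl splicing, had 10, 3, 0 and 0 reads and 2.93 ± 1.89 in the authors' deposited table (unadjusted p = 0.121, DESeq2). Sxl was listed with 4 separate 5' UTR intervals of 2 to 6 reads, which had log2 fold changes of 0.21 to 1.03 with SEs of 1.93 to 1.94 in the authors' deposited table. A difference was not detectable at this depth.

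The other lists were mostly below the coverage that received an adjusted p. Of 4 X-linked splicing factor genes and 1 translation factor gene, 0 had one. Among splicing factors U2af50, the large U2AF subunit, had the highest count after snf with 10 reads, and 2.50 ± 1.93 in the authors' deposited table. Of 5 cytoskeleton genes only mys had an adjusted p, and 11 of their 11 observations were positive with a median of 6 reads. Act5C, a cytoplasmic actin, showed 11, 4, 0 and 0 reads in its best covered 5' UTR interval, with 3.13 ± 1.86 in the authors' deposited table. Its other 5' UTR intervals, of 153 and 8 bases, had 0.10 ± 1.80 and 0.50 ± 1.98. Of 10 chromatin and transcription regulators 2, Smr and Hr4, had an adjusted p and 0 were enriched. dm, the Myc gene, had 7 reads and 1.11 ± 1.94 in the authors' deposited table. Chaperone and redox genes had 2 members on the X, Hsc70-3 and sesB, with at most 7 reads per observation. Over all 5' UTR observations 82.0% were positive and the median log2 fold change was 0.74, so a positive sign by itself was common.

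Just below the coverage limit, CG18259 and pico, an actin regulator, had 18 reads each, divided as 9 and 9 between libraries a and b, and both stood at 3.3 ± 1.84 on the log2 scale in the authors' deposited table (unadjusted p = 0.0724, DESeq2). exd and GstT4 had 10, 7, 0 and 0 reads each and 3.26 ± 1.84 in the authors' deposited table. The lowest values among X-linked genes without an adjusted p, apart from RpS14b, were those of an interval shared by rg and CG15465, with 5 reads at -1.61 ± 1.93, and of CG5004 and mei-P26, with 2 reads each, both in library d, at -1.46 ± 1.93 in the authors' deposited table.

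The size that a fold change could reach was limited by how many reads an observation held, so its rise with reads is partly built in. The share of positive values also varied with the number of reads. Over all listed X-linked observations the authors' deposited table had a median log2 fold of 0.85 and 397 of 439 (90.4%) were positive, against 0.74 and 82.0% over all 5' UTR observations. At the minimum of 2 reads the largest fold change on the X was 0.74 and the median 0.51, both equal to those of the other chromosomes. Observations with the same reads in each library had the same fold change. At 2 reads these values were thus largely fixed in advance, whatever the chromosome. With 10 to 20 reads the X-linked median was 2.60 over 66 observations, of which 64 were positive, against 2.24 over 81 on the other chromosomes, of which 72 were positive. With 21 to 50 reads the medians were 3.26 over 19 X-linked observations and 3.66 over 22 on the other chromosomes. Above 50 reads 7 of 9 X-linked and 6 of 6 other observations were positive, with medians of 4.20 and 3.15. The X-linked share of positive values was the higher one up to 20 reads and the lower one above, and no test was made of these differences.

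**Figure D4:**
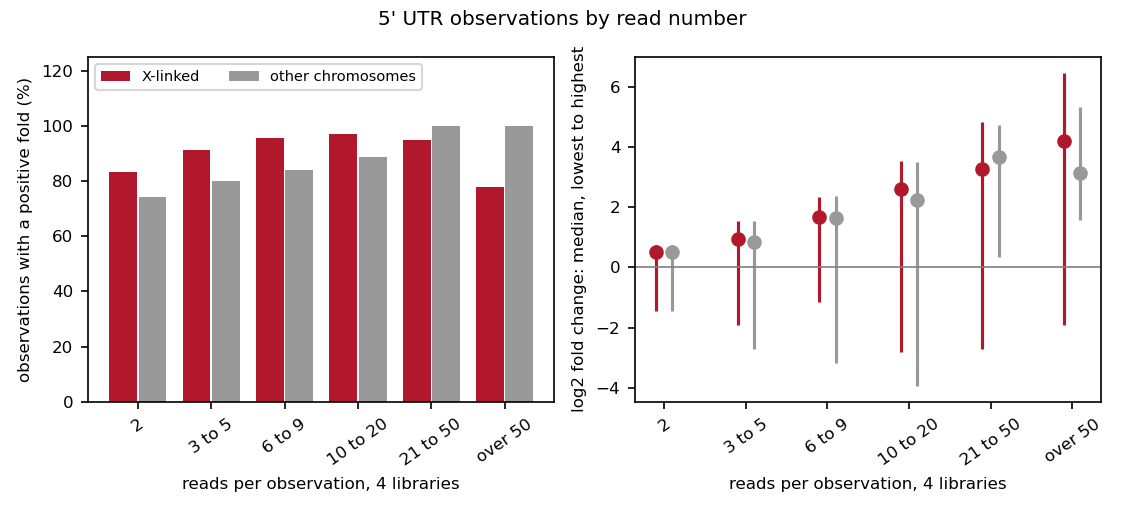
Left, the percentage of observations with a positive fold by number of reads for X-linked (red) and other (grey) 5' UTR observations. Right, the median (points) and the lowest to highest value (lines) of the authors' log2 fold change. X-linked medians climb from 0.51 at 2 reads to 4.20 above 50 reads.

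The 34 genes were followed into the other region tables, which come from the same 4 libraries but were scaled separately, so values are given side by side and not compared in size. Of these genes, 28 were listed among 3' UTRs and 8 had an adjusted p at their interval of smallest p. Of the 8, 6 were enriched (RpL17, RpS5a, Clic, pigs, Fim and CG1673). Counted by any interval, 36.5% of all tested 3' UTR genes, 60.5% of the X-linked ones and 14.1% of the others were. None of the 8 was depleted, against 1.12% of all tested 3' UTR genes and 1.16% of the X-linked ones (1.09% of the others). In the authors' deposited tables RpL17 had 4.82 ± 1.65 in its leader and 5.49 ± 1.40 in its 3' UTR, and RpS5a 4.77 ± 1.66 and 3.62 ± 1.19. Clic and CG1673, whose leaders did not pass, had 3' UTR values of 3.36 ± 0.84 and 3.99 ± 1.33 in the authors' deposited table (adjusted p = 0.0013 and 0.013, DESeq2).

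For RpS6 and RpS19a no 3' UTR call was possible at their coverage. Their 3' UTRs had means of 0.36 and 1.70 normalized reads and log2 fold changes of 0.45 ± 1.69 and 0.75 ± 1.74 in the authors' deposited table, neither with an adjusted p. Next to the leader of RpS6, its coding interval of 6 bases (X, 7901243 to 7901248, minus strand, dm6) had a mean of 9.10 normalized reads and 2.11 ± 1.51 in the authors' deposited table (adjusted p = 0.855, DESeq2). In coding sequence 23 of the 34 genes were listed and 0 were called, as were 0 of all tested genes.

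Among introns, 28 of the 34 genes were listed, 11 with an adjusted p at their interval of smallest p. Of these 11, 2 were enriched and 1 was depleted, against 4.73% and 6.90% of all tested intron genes, counted by any interval. Smr, not among the 11, had other introns with adjusted p-values of 0.368 to 0.560 (DESeq2). On the X 6.14% of tested intron genes were enriched and 4.39% depleted, against 4.33% and 7.63% on the other chromosomes. Aats-his was depleted there, at -2.90 ± 0.92 (adjusted p = 0.0220, DESeq2) in the authors' deposited table, in an interval that shares 612 bases with its leader of 867 bases and can hold the same reads. RpL17 was enriched at 4.46 ± 1.40 in the authors' deposited table (adjusted p = 0.0208, DESeq2), again in a stretch that overlaps its leader. Hr4 had opposite signs, with -2.81 ± 1.51 in its leader and 3.24 ± 0.97 (adjusted p = 0.0157, DESeq2) in an intron that does not overlap it (X, 1953467 to 1967895, plus strand, dm6), in the authors' deposited tables. The difference was not tested. Of the 42 X-linked leader observations with an adjusted p, 19 from 16 genes share bases with a listed intron on the same strand. For CG10970 that intron is of CG44325, while the others overlap an intron of their own gene. A leader of an isoform is thus often an intron of another.

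**Figure D5:**
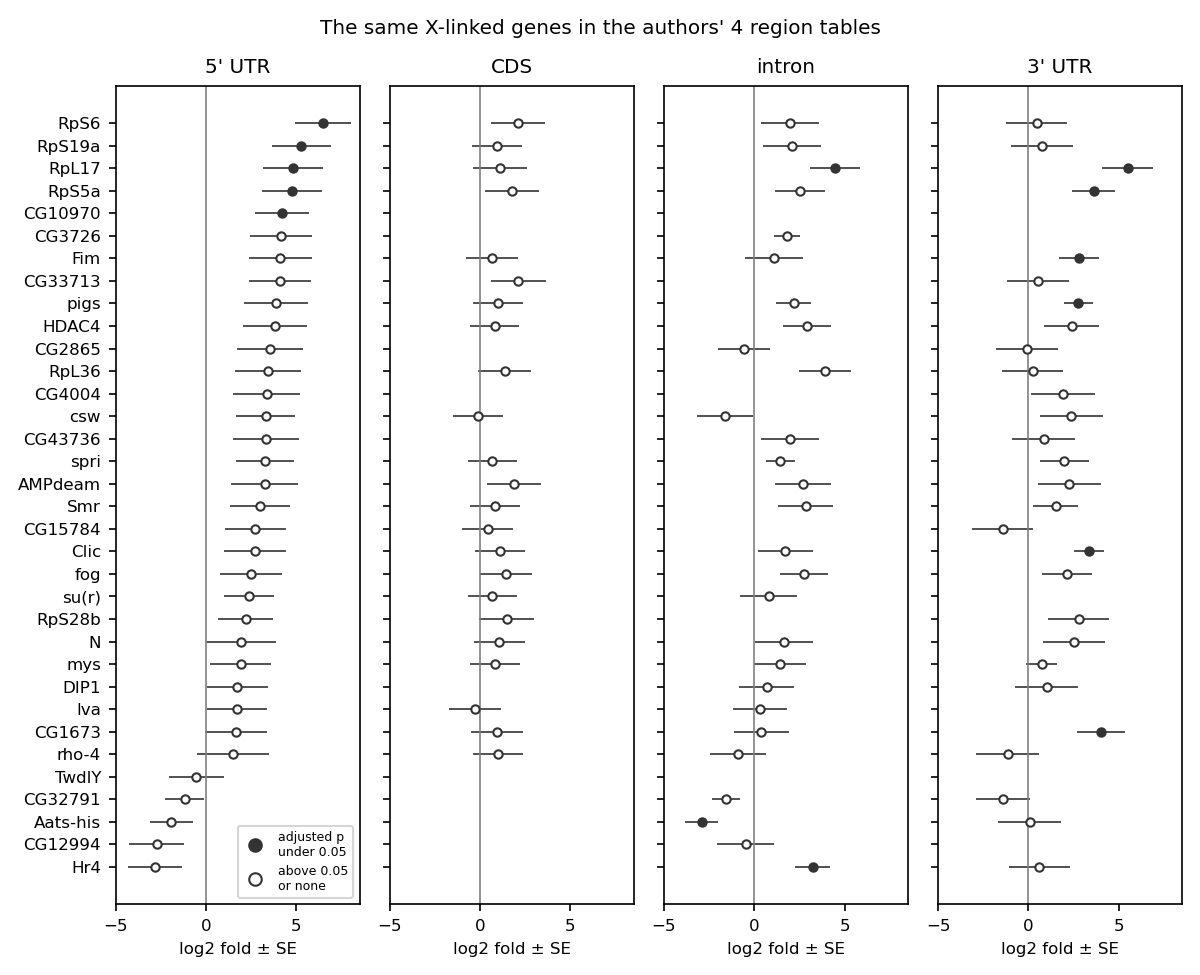
The authors' log2 fold change (points) and SE (bars) of the 34 X-linked genes in 5' UTR, CDS, intron and 3' UTR, for the interval of smallest p in each region, with filled points at an adjusted p under 0.05. RpL17 is filled in 5' UTR, intron and 3' UTR, RpS6 and RpS19a in the 5' UTR alone, and Hr4 lies left of 0 in the 5' UTR and right of it in the intron.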

How the data were processed

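Per the submitters' processing notes the data were made with cutadapt 1.6, Bowtie 0.12.7, DESeq2 1.14.1 and DESeq on BDGP6 and dm6. The counting of reads, the handling of duplicates and strand, and the annotation have no description in the sources used here. Per the file headers, the authors' tables hold a signal for every interval, the mean of normalized reads, the log2 fold change and its SE on the log2 scale, the test statistic as a score, and p-values, all used as deposited. The statistic equals fold over SE and the p-value is its two-sided normal p, checked in every 5' UTR interval. Values per named library were not used here, so no test was run on libraries, and values have no SD or n. Whole reads were solved from the steps of the mean (relative tolerance 1e-13, a unique solution for 100% of intervals). On simulated data 100% were recovered, with size factors that are not whole multiples of 1 step, without which the solution is not unique. The low read combinations that the solution starts from were placed in the simulated data, so their presence was not tested. A gene was called when any interval passed an adjusted p of 0.05. Exact intervals are Clopper-Pearson, at 95%. Names were updated through RefSeq of Release 6, where 257 X-linked names are current symbols, 45 are synonyms and 1 was not matched. Members, gene lists and the rule for named genes (every X-linked gene with an adjusted p, the extremes of the others and list members) were chosen with earlier results of these data known. Rab21, Graf, Ntf-2, gce and other genes of the plot of paired leaders were added after their values were seen. No sequence was analysed here, so the planned shares of T runs and oligopyrimidine starts were not run. Python 3.11.15 with pandas 2.3.3 and scipy 1.17.1 was used.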

Additional observations from a re-analysis of the deposited data

How the results depend on the processing

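The 5 X-linked enriched genes were kept at 5 with an adjustment over only the intervals that have a deposited adjusted p, at a threshold of 0.1, and without observations that carry several gene names. They fell to 0 genes (0%) when p-values were adjusted over all listed 5' UTR intervals, to 1 (RpS6, 2.94% of 34) over the 4 region tables together, to 1 at a threshold of 0.01, and to 3 of 7 genes (42.9%) at a mean of at least 10. The adjusted p of RpS6 was 0.067 over all listed 5' UTR intervals and 0.0242 over the 4 tables, and those of RpS19a, RpL17, RpS5a and CG10970 were 0.537 to 0.756 and 0.213 to 0.435. The cause of the lost calls was not tested beyond the larger number of intervals adjusted over. Without genes whose interval overlaps a listed interval of another gene, an alternative chosen after seeing the data, 3 of 30 remained (RpS19a, RpL17 and RpS5a). RpS6 was left out there through its interval of 411 bases, which shares 322 bases with an intron of CR33222, while its enriched interval of 83 bases shares none with an interval of another gene. With the opposite direction of the fold change, also chosen after seeing the data, 0 genes would be enriched. Counted as observations, 16.7% of 42 were enriched. X-linked observations had a median log2 fold change of 3.13 over the 42 with an adjusted p and 0.85 for all 439, and ranged from 2.70 to 4.2 under the other settings. No paired analysis was possible because the columns carry no replicate numbers. Fits without 1 library or with another normalization were not run, since the solved reads have no sample labels. Depth limits most X-linked leaders, since 345 of 439 observations held fewer than 10 reads.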
